A study of Rattus norvegicus with 6 samples.

Results

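Havcr1, Lcn2 and Clu are transcripts that injured kidney tubule is known to make, and they are described here in rat kidney after sub-total nephrectomy (SNx). They were picked by Ensembl identifier, ENSRNOG00000007243 for Havcr1, ENSRNOG00000013973 for Lcn2 and ENSRNOG00000016460 for Clu, as 3 of the 23487 genes in the deposited count table. Their difference between SNx and control kidneys was known when they were picked. Their levels and fold changes in that comparison are therefore given as a description, without a test.

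The study ran separate SNx experiments. The first, described here, profiled bulk kidney RNA from 3 SNx rats and 3 non-operated rats (NoOp). It used paired-end reads from stranded libraries that had been cleared of ribosomal RNA. According to the study's methods, part of the kidney tissue was fixed for histology and the rest was frozen for proteomics or RNA. The RNA integrity estimates reported there, a range for all samples of the study, reached low values, and none is given per library. All animals were male Wistar Han rats without a transgene, and the study's methods give a range of body weights but no age. SNx removed most of the right kidney and, in a later operation, the whole left kidney, so the tissue sequenced came from what remained of the right one. SNx animals were killed when serum creatinine or urinary protein had risen past a set limit, so the time since surgery varied between them. The controls had no surgery, so loss of kidney tissue, surgery as such and time since surgery cannot be told apart.

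Havcr1 encodes kidney injury molecule 1 (KIM-1), a membrane receptor for phosphatidylserine with which injured proximal tubule cells take up dying cells. Lcn2 encodes neutrophil gelatinase-associated lipocalin (NGAL), a secreted protein that binds iron-carrying siderophores and is made both by injured distal tubule and by neutrophils. Clu encodes clusterin, a secreted chaperone that binds misfolded proteins and restrains the terminal complement complex. All are established markers of tubular injury in rodents and humans, and KIM-1 and NGAL are followed in urine.

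RefSeq (build GRCr8) gives a promoter window for 2 of the 3 genes, Havcr1 and Lcn2, which are shown because both transcripts were scarce in every NoOp library and abundant in every SNx library. The 250 bases before the start are printed 5′ to 3′ on the strand of the gene, at chr10:31629528-31629777 (plus strand) for Havcr1 and chr3:36081781-36082030 (minus strand) for Lcn2. These coordinates belong to GRCr8 and not to rn6, the build of the counts. The RefSeq span of Havcr1 begins upstream of its window, so this window belongs to a start inside the span. Capitals mark matches to the letters searched.
Havcr1: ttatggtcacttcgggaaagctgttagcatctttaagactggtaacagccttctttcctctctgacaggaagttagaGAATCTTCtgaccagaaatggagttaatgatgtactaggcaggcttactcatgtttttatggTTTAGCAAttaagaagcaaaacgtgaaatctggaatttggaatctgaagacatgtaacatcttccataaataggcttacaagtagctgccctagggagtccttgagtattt
Lcn2: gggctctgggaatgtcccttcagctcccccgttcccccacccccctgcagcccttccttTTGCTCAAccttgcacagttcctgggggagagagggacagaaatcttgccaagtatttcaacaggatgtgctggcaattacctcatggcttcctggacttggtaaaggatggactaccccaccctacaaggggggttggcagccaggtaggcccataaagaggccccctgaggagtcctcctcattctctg

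The 300-base windows, which add 50 bases after the start, were searched on both strands for 5 sets of letters. TTGCNNAA, the core read by C/EBP factors, occurred once in each window, beginning 111 bases before the start of Havcr1 on the reverse strand and 191 bases before the start of Lcn2 on the forward strand, and 10.6% of all 33469 RefSeq windows held it. GAANNTTC, a pair of inverted heat shock factor units, occurred once in Havcr1, beginning 173 bases before the start, and in 8.59% of all windows. Neither window held TTCNNNGAA (STAT factors), TGANTCA (AP-1) or the form of the NF-kB motif searched. These were in 8.87%, 7.33% and 1.53% of all windows. Other forms of the NF-kB motif were not searched, so these windows may still hold a site for NF-kB. No matches overlapped each other in these windows, and a match describes the letters only.

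The libraries held 11183768 to 13140864 estimated counts in NoOp and 9572955 to 10707643 in SNx, so every SNx library was the smaller. Scaling factors from the trimmed mean of M-values (TMM), which correct library size for RNA composition, were 0.884 to 0.963 in NoOp and 0.990 to 1.21 in SNx. Levels below are TMM-scaled CPM, the counts relative to the scaled library size. In bulk kidney tissue, more cells making a transcript and more transcript per cell cannot be told apart. The files do not pair identifiers with gene symbols, so markers of tubule segments, neutrophils and other cells were not analysed here, and their part in these differences was not tested.

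Havcr1 was scarce in the control libraries and had the largest fold difference of the 3 markers. NoOp replicates 1, 2 and 3 held 22, 9 and 24 reads of Havcr1 by estimated count, against 2478, 2152 and 1856 for SNx replicates 1, 2 and 3. These were levels of 2.14, 0.712 and 2.30 CPM in NoOp and of 239, 166 and 196 CPM in SNx. The groups lay far apart, and the lowest SNx library held 72.2 times the CPM of the highest NoOp library. The mean level was 1.72 ± 0.876 CPM for NoOp animals and 200.3 ± 36.3 CPM for SNx animals (SD, n = 3 each), a ratio of 117. By count it stood between places 11931 and 13408 of 23487 genes in the NoOp libraries and between places 547 and 774 in the SNx libraries.

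Lcn2 was also scarce in NoOp. Its estimated counts were 15, 58 and 28 across NoOp replicates 1, 2 and 3, against 1278, 2210 and 909 across SNx replicates 1, 2 and 3. Its level was 1.46, 4.59 and 2.69 CPM in the NoOp libraries and 123, 171 and 96.0 CPM in the SNx libraries. Again no library of one group reached the other, with a gap of 20.9 times between the lowest SNx and the highest NoOp level. The mean was 2.91 ± 1.58 CPM over the NoOp animals and 130.0 ± 37.8 CPM over the SNx animals (SD, n = 3 each), a ratio of 44.6.

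Clu differed from the other markers in that it was plainly present in control kidney. For NoOp replicates 1, 2 and 3 the estimated counts were 1004, 960 and 707, and for SNx replicates 1, 2 and 3 they were 24578, 24039 and 12570. Its level was 97.6, 76.0 and 67.9 CPM in the NoOp libraries and 2366, 1858 and 1328 CPM in the SNx libraries. In SNx it was among the most abundant transcripts by count, at place 19 of 23487 genes in replicates 1 and 2 and place 39 in replicate 3, while in NoOp it stood between places 2011 and 2971. The mean level was 80.5 ± 15.4 CPM for NoOp and 1851 ± 519 CPM for SNx (SD, n = 3 each), a ratio of 23.0, and the lowest SNx library was 13.6 times the highest NoOp library.

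**Figure D1:**
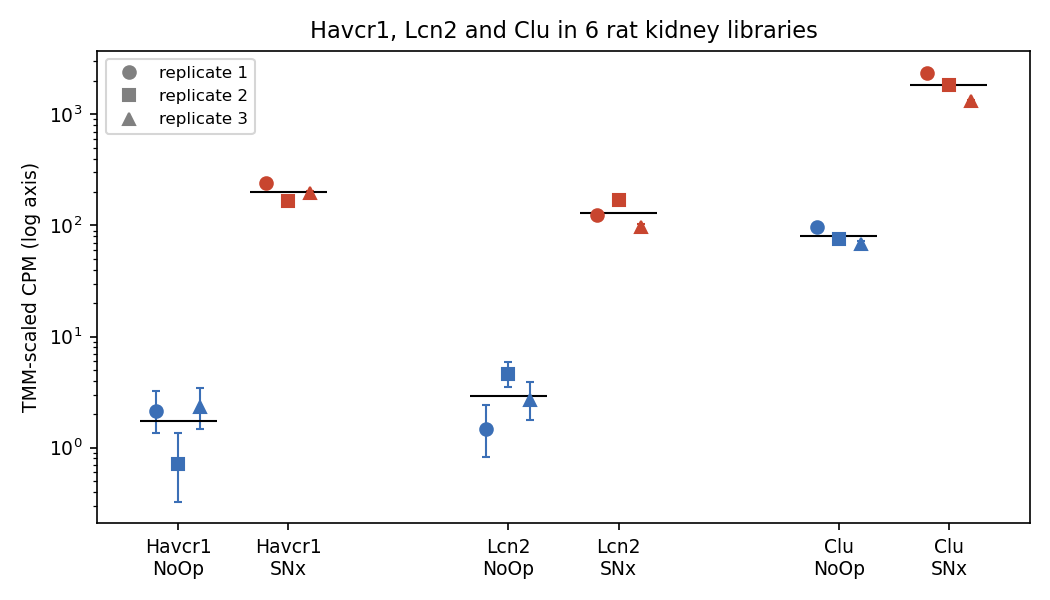
TMM-scaled CPM (log axis) of Havcr1, Lcn2 and Clu in each of the 6 libraries, with blue points for NoOp and red points for SNx, marker shape for the replicate, a black line at the group mean and bars for the 95% Poisson interval of the count. Every SNx point lies above every NoOp point of the same gene, and the bars are visible only in NoOp, where Havcr1 and Lcn2 rest on 9 to 58 counts.

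In the fit of voom and limma across all 13644 genes that passed the filter on low counts, which all 3 markers passed, the log2 fold change from NoOp to SNx was 7.04 (SE 0.45) for Havcr1, 5.51 (SE 0.48) for Lcn2 and 4.49 (SE 0.24) for Clu. The median over all genes tested was 0.01. Only 9 genes had a larger log2 rise than Havcr1, 32 than Lcn2 and 86 than Clu. All 3 markers had every SNx library above every NoOp library, as did 27.1% of the genes tested, and since this contrast was known when they were picked, nothing is read from the count. For the same fit, 35.8% of genes had a limma adjusted p (Benjamini-Hochberg) under 0.05, and 19.2% had one and were higher in SNx.

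**Figure D2:**
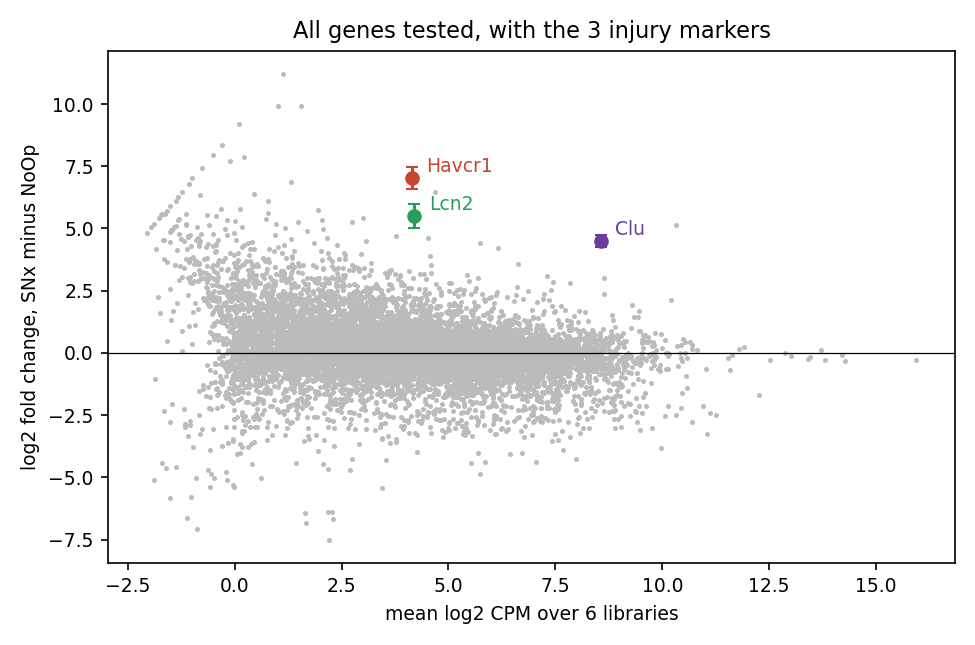
Log2 fold change (SNx minus NoOp) against the mean log2 CPM over the 6 libraries for the 13644 genes tested (grey), with Havcr1, Lcn2 and Clu coloured and bars for their standard errors. Havcr1 at 7.04, Lcn2 at 5.51 and Clu at 4.49 lie above the main cloud, and Clu lies farther to the right, at a higher mean level.

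The estimated rises were unequal, but the ratio of counts separated the groups only for Clu and Havcr1. Clu had 29.5 to 107 times the counts of Havcr1 within a NoOp library and 6.77 to 11.2 times within an SNx library. Clu counts were 16.6 to 66.9 times those of Lcn2 in NoOp and 10.9 to 19.2 times in SNx, so these ranges overlapped. The ratio of Havcr1 to Lcn2 counts was 0.155 to 1.47 in NoOp and 0.974 to 2.04 in SNx, also with overlap. Counts were not divided by transcript length, so these ratios compare libraries and not the abundance of the genes.

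The markers did not rank the animals alike. In NoOp replicate 2, Havcr1 was at its lowest level, 0.712 CPM with a 95% Poisson interval of 0.326 to 1.35, and Lcn2 at its highest, 4.59 CPM with an interval of 3.48 to 5.93. The Lcn2 interval lay above that of NoOp replicate 1, 0.816 to 2.41 CPM, so counting error alone does not cover the difference between these 2 animals, and it overlapped that of replicate 3, 1.79 to 3.89 CPM. For Havcr1 the interval of NoOp replicate 2 met that of replicate 1, 1.34 to 3.24 CPM, and lay under that of replicate 3, 1.48 to 3.43 CPM. The intervals cover counting error only.

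Among the SNx animals, Lcn2 was highest in replicate 2 and lowest in replicate 3, Clu was highest in replicate 1 and lowest in replicate 3, and Havcr1 was highest in replicate 1 and lowest in replicate 2. The last of these depended on the scaling, because on library size alone Havcr1 was 251, 201 and 194 CPM in SNx replicates 1, 2 and 3. The highest SNx level exceeded the lowest by 1.43 times for Havcr1, 1.78 times for Lcn2 and 1.78 times for Clu. Within SNx the SD of log2 CPM was 0.26 for Havcr1, 0.42 for Lcn2 and 0.42 for Clu, beside a median of 0.23 over all genes tested. Within NoOp it was 0.83 for Havcr1, 0.77 for Lcn2 and 0.27 for Clu, beside a median of 0.18.

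SNx replicate 3 lay nearer to the controls than the other SNx libraries for Lcn2 and Clu. Without it the log2 fold change was 7.05 for Havcr1, 5.70 for Lcn2 and 4.72 for Clu. The value that moved most was that of Havcr1 without NoOp replicate 2, the library with 9 counts, where the fold change fell from 131 to 86.2 times, or to 6.43 on the log2 scale. The library numbers in the sample titles fall into 2 ranges, which were not balanced between the groups. The first held SNx replicates 1 and 2 and NoOp replicate 1. The second held SNx replicate 3 and NoOp replicates 2 and 3. With the range as a term the log2 fold change was 6.98 for Havcr1, 5.31 for Lcn2 and 4.32 for Clu.

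**Figure D3:**
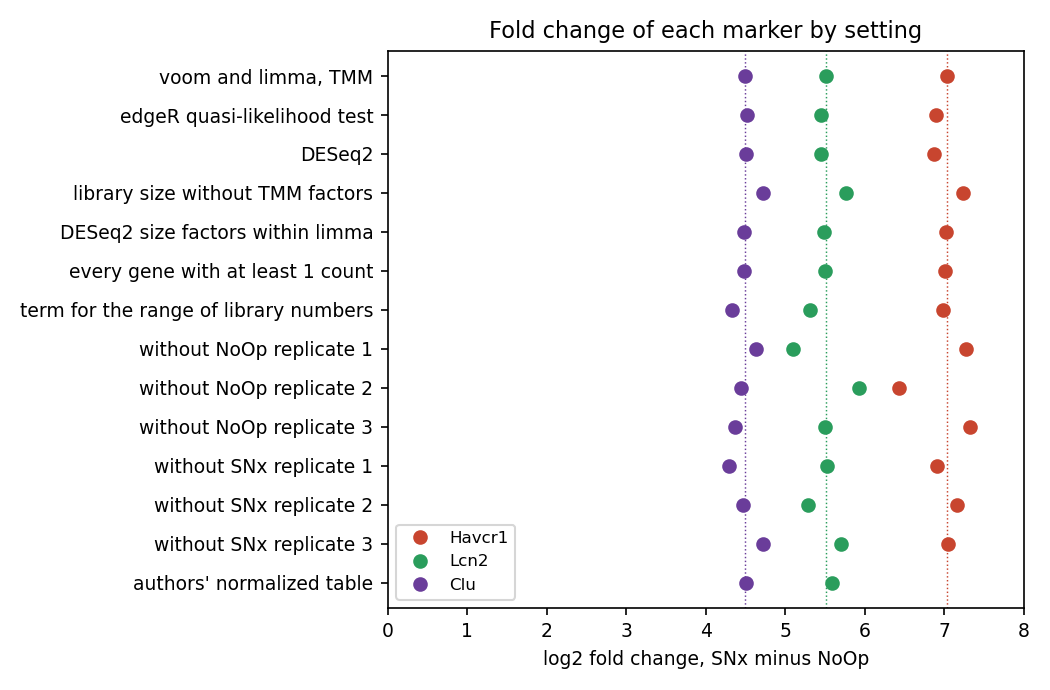
Log2 fold change (SNx minus NoOp, x axis) of Havcr1, Lcn2 and Clu in the main analysis (top row, dotted lines) and under each other setting (rows below). The points of a marker stay together, from 6.43 to 7.33 for Havcr1, 5.10 to 5.92 for Lcn2 and 4.29 to 4.72 for Clu, and Havcr1 has no point for the authors' normalized table because it has no row there.

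The deposited normalized table, which gives log2 CPM for 12135 genes, held rows for Lcn2 and Clu but none for Havcr1. Lcn2 was 0.58, 2.19 and 1.43 log2 CPM in NoOp replicates 1, 2 and 3, and 6.96, 7.44 and 6.59 log2 CPM in SNx replicates 1, 2 and 3, a difference of 5.59 between group means. Clu was 6.60, 6.25 and 6.08 log2 CPM in the NoOp libraries and 11.21, 10.86 and 10.38 log2 CPM in the SNx libraries, a difference of 4.51. Both differences lay within 1 SE of the fold change from the counts. This is not a separate check, because both sets of values come from the same reads.

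The missing row of Havcr1 did not go with a low count. Havcr1 averaged 1090 counts over the 6 libraries, and 10481 of the 12135 genes in the normalized table (86.4%) had a lower mean count. Of these 12135 genes, 941 had a smaller count in their lowest library than the 9 counts of Havcr1, and 294 were lower than Havcr1 in every library. Havcr1 was not alone, since 206 of the 1860 genes with at least its mean count (11.1%) were missing from the normalized table, as were 1526 of the 13644 genes tested (11.2%). Of the 32 genes with a larger log2 rise than Lcn2, Havcr1 included, 8 were missing. The gene filter behind the normalized table is not given in the sources used here. The paper reports a significant KIM-1 rise only in kidney protein of its second SNx experiment, and none in kidney transcripts. Whether the missing row has a part in that was not tested.

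**Figure D4:**
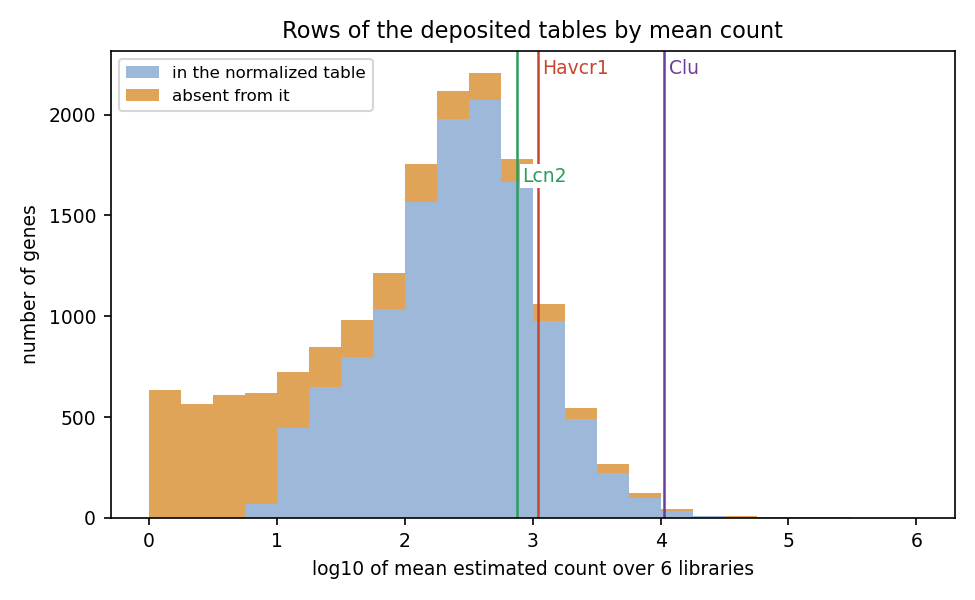
Number of genes by log10 of the mean estimated count over the 6 libraries (genes with a mean of at least 1), split into genes with a row in the normalized table (blue) and without one (orange), with vertical lines at Lcn2, Havcr1 and Clu. Genes without a row occur at the counts of all 3 markers, and Havcr1, at a mean of 1090 counts, is one of them.

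According to the study's methods the normalized values start from length-scaled estimates. The normalized value was therefore returned to the count scale, divided by the raw count and compared between groups for the 2 markers with both values. Centred on the library median, the log2 ratio of Lcn2 averaged -0.0075 ± 0.0052 over NoOp and 0.0087 ± 0.012 over SNx (SD, n = 3 each), a difference of 0.016 between groups. Rounding of the 15 counts of NoOp replicate 1 to a whole number can by itself move that library's ratio by 0.047. The difference is between means of 3 libraries, and without NoOp replicate 1 it was 0.019. The part of rounding in it was not tested. For Clu it averaged 0.00026 ± 0.0044 over NoOp and 0.00092 ± 0.0040 over SNx (SD, n = 3 each). These are descriptions, since both tables come from the same reads and the smallest p that an exact permutation test of 3 libraries against 3 allows is 0.1.

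The genes whose profile over the 6 libraries was most like that of each marker were found by the root mean square difference of log2 CPM centred on the mean of each gene. The gene nearest to Clu was ENSRNOG00000047657, at 0.16, whose estimated counts were 201, 204 and 144 across the NoOp animals and 3821, 4604 and 2133 across the SNx animals. The gene nearest to Lcn2 was ENSRNOG00000010478, at 0.42, whose estimated counts were 9, 18 and 9 across NoOp and 485, 528 and 356 across SNx. Neither had a row in the normalized table, which lacked 11.2% of the genes tested. The gene nearest to Havcr1, at 0.61, did have a row there. Its counts were 0, 0 and 1 in NoOp and 130, 188 and 124 in SNx. The profile of this gene therefore rests on the offset added before the log.

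The markers were not each other's nearest profiles by this distance. It takes in the unequal size of their fold changes, so it does not measure likeness apart from the known difference between groups. Some nearer genes had no counts in NoOp, so their place rests on the offset added before the log. Lcn2 lay at 0.79 from Clu, with 20 genes nearer to Lcn2 and 116 nearer to Clu. Havcr1 lay at 1.16 from Lcn2 and 1.28 from Clu, with 14 and 21 genes nearer to Havcr1, 80 nearer to Lcn2 and 566 nearer to Clu. With Pearson correlation in place of distance, none of the 5 nearest genes was shared for Havcr1 or Lcn2 and 1 was shared for Clu, so the neighbours depend on the measure.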

How the data were processed

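RNA of 3 SNx and 3 NoOp kidneys was analysed, grouped by the treatment label, with replicates numbered in order of deposition. The study's methods list 3 animals per group for this SNx experiment, the first of those in the study. The authors ran Salmon (per the labels) against rn6 transcripts, collapsed the estimates to genes by tximport and applied voom in limma. Tool versions and annotation release are not given in the sources used here. The authors deposited estimated counts as whole numbers (23487 genes) and normalized log2 CPM values (12135 genes), and all 12 single-library files held the same values as the series tables.

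Genes were kept by filterByExpr (minimum count 10, total 15), scaled with TMM and fitted with voom and limma 3.58.1 (edgeR 4.0.16, R 4.3.3), the model holding group alone. Adjusted p-values were by Benjamini-Hochberg over 13644 genes, at a threshold of 0.05. Profiles used log2 CPM with a prior count of 2. Poisson intervals used SciPy 1.17.1. DESeq2 1.42.0 and the quasi-likelihood test of edgeR were alternatives, as were other scaling, filters, the normalized table, the library number range and leaving out each library. The fit was tested on simulated counts.

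The members and lists were chosen with earlier results of these data known. The plan was to name the 3 markers, genes of the fixed lists and the 5 profiles nearest each marker. The reference tables hold no rat Ensembl identifiers, so the 12 gene lists were not analysed here, and at most 2 identifiers are printed beside the markers.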

Additional observations from a re-analysis of the deposited data

How the results depend on the processing

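The log2 fold changes of the 3 markers moved by less than 1 SD of their replicates in all 38 values under other settings. For the settings that leave out 1 library this says little, because dropping 1 of 3 libraries moves a group mean by less than its SD. The SD of Havcr1 also takes in NoOp replicate 2, without which its fold change fell from 131 to 86.2 times. Scaling by library size alone, which shifts the median log2 fold change of all genes to 0.24, gave 7.23 for Havcr1, 5.76 for Lcn2 and 4.72 for Clu. Leaving out 1 library at a time gave 6.43 to 7.33 for Havcr1, 5.10 to 5.92 for Lcn2 and 4.29 to 4.72 for Clu. Levels of Havcr1 and Lcn2 in NoOp rest on 9 to 58 counts, which limits the precision of their fold changes. Of all genes, 4891 passed the threshold, 2620 higher and 2271 lower, and leaving out 1 library gave 2857 to 5764, 1497 to 3201 and 1360 to 2563, with moves of over 1.5 times without NoOp replicate 2 (3124 in all), without NoOp replicate 3 (2857) and, for lower genes, without SNx replicate 2 (1481). Library size alone gave 1402 lower genes, and 70.7% of its calls were higher, against 53.6% with TMM. The difference of the table ratio for Clu was 0.00067 and moved to 0.0056 without centring, and ranged from -0.0013 to 0.0032 when 1 library was left out (0.010 to 0.022 for Lcn2). With a prior count of 0.5, 2 of 5 nearest profiles were shared for Havcr1, 2 for Lcn2 and 3 for Clu. The cause was not tested. SNx and NoOp were separate animals, so there was no pairing to analyse, and the labels give no replicate numbers. The planned counts over gene lists were not run.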
